A study of Mus musculus with 18 samples.

Results

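The Toll-like receptors are a family of membrane proteins that recognise conserved molecules of microbes and of damaged cells. The 10 members followed here (Tlr1 ENSMUSG00000044827, Tlr2 ENSMUSG00000027995, Tlr3 ENSMUSG00000031639, Tlr4 ENSMUSG00000039005, Tlr5 ENSMUSG00000079164, Tlr6 ENSMUSG00000051498, Tlr7 ENSMUSG00000044583, Tlr8 ENSMUSG00000040522, Tlr9 ENSMUSG00000045322 and Tlr13 ENSMUSG00000033777) were chosen by gene symbol, and each matched 1 of the 37620 Ensembl gene IDs counted. Their RNA was measured by sequencing in 18 libraries of MO4 tumours, an ovalbumin-bearing line of the B16F10 mouse melanoma, raised in both hindlimbs of C57BL/6 mice, with 100000 cells implanted per limb on day 0. IFN-alpha-pMC or pMC (the labels' IFN-α-iPSC-pMCs and iPSC-pMCs, cells made from induced pluripotent stem cells) were placed next to the right tumour on days 5, 6 and 7, with 1000000 cells each time, and tumours were taken on day 11. The 6 groups, with 3 libraries each, were IFN-alpha-pMC, pMC and untreated control on the right, which is the injected side, and IFN-alpha-pMC, pMC and untreated control on the left, where the distant tumour lay. All groups carried the same tumour line in the same strain, and mouse age is not given in the sources used here. The labels do not say from which species the iPSC-pMCs were made or what IFN-alpha they carry. Nor do they say whether libraries of a group came from separate mice. All p-values therefore speak of the spread among libraries, which may not be the spread among mice. How far RNA of the injected cells is among the counts was not tested.

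Tlr1, Tlr2, Tlr4, Tlr5 and Tlr6 act at the cell surface, where Tlr2 pairs with Tlr1 or Tlr6 to bind bacterial lipoproteins, Tlr4 binds lipopolysaccharide together with Ly96, and Tlr5 binds flagellin. Tlr3, Tlr7, Tlr8, Tlr9 and Tlr13 act in endosomes and recognise nucleic acids: double-stranded RNA by Tlr3, single-stranded RNA by Tlr7 and Tlr8, unmethylated CpG DNA by Tlr9 and bacterial ribosomal RNA by Tlr13. Unc93b1 carries the endosomal receptors out of the endoplasmic reticulum. Most receptors of the family signal through the adaptor Myd88, Tlr3 uses Ticam1 and Tlr4 uses both, and the pathways end in NF-kappa-B and interferon regulatory factors. In tumours the receptors are found chiefly on macrophages, dendritic cells and other leukocytes, and Tlr3 and Tlr4 also occur outside the immune system.

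Tlr3 and Tlr4 together held most of the family's RNA in untreated tumours. Levels between genes were compared as CPM (a gene's count over the library total, times 1000000) per kb of exon. On that scale Tlr3 stood at 16.8 ± 5.64 in right controls and 17.3 ± 2.07 in left controls (SD, n = 3 each), and Tlr4 stood at 10.4 ± 2.55 in right and 9.67 ± 0.736 in left controls. Tlr13 followed at 2.48 ± 0.438 in right controls and 2.45 ± 0.205 in left controls. Tlr9, Tlr7, Tlr1, Tlr8 and Tlr2 lay between 1.73 and 2.29 in right controls and between 1.48 and 2 in left controls, in that order on both sides, and the ranges over libraries of neighbours in this order overlapped. Tlr6 was lower, at 0.432 ± 0.148 in right and 0.365 ± 0.0732 in left controls, and did not overlap with Tlr2. Tlr5 was near the limit of detection, with 4 counts over 3 right controls and 6 over 3 left controls. Totals ran from 14346091 to 23430259 counts per library, so the 3 counts that a listed 0 could hide come to 0.128 to 0.209 CPM. Tlr5 failed the filter on low counts and was not tested, so 9 members were tested.

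Libraries of a group were alike except for 3. Spearman correlations of counts between libraries of 1 group ran from 0.936 to 0.996, and the 6 pairs under 0.981 each involved right control 3 or library 3 of the right or library 1 of the left IFN-alpha-pMC tumours. Where leaving out 1 or all of these libraries changed a call, some of the values stand beside the results that follow. Counts of calls without all 3 are given at the end for several comparisons. Reads of Tlr1 and Tlr6, which are close paralogs, may lie among the 18.38 to 24.34% of read pairs that aligned to more than 1 place and were not counted, which was not tested. The annotation has an antisense gene, Gm45542, over Tlr3 on the opposite strand, which is not among the counted IDs, and the libraries are stranded, though the strand setting of the counting is not given in the sources used here.

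In IFN-alpha-pMC tumours of the right side the make-up of the family differed. The sum over the 10 members was 67.5 ± 14.5 CPM per kb in right IFN-alpha-pMC tumours, 37.7 ± 1.92 in right pMC tumours and 40.1 ± 7.46 in right controls. Tlr13 made up 15.9 ± 0.204% of that sum in right IFN-alpha-pMC tumours, 7.11 ± 0.389% in right pMC tumours and 6.18 ± 0.278% in right controls, and its 3 libraries lay far outside both other ranges. The share of Tlr3 was 26.9 ± 0.492% in right IFN-alpha-pMC tumours, against 39.1 ± 5.34% with pMC and 41.7 ± 9.44% in right controls. For Tlr4 the shares were 19 ± 4.72% in right IFN-alpha-pMC tumours, 30 ± 1.08% with pMC and 26.4 ± 7.15% in right controls. Its ranges in IFN-alpha-pMC tumours (13.5 to 22.1%) and controls (19.8 to 34%) overlapped. The levels of Tlr3 and Tlr4 themselves were not lower by mean. They were 18.1 and 12.4 CPM per kb in right IFN-alpha-pMC tumours, against 16.8 and 10.4 in right controls, so the smaller shares go with the larger sum. The order by mean was still Tlr3, Tlr4 and Tlr13 in all 6 groups, but in right IFN-alpha-pMC tumours the ranges of Tlr13 (9.25 to 13.4 CPM per kb) and Tlr4 (11.4 to 13.5 CPM per kb) overlapped. In right controls Tlr13, at 2.01 to 2.87 CPM per kb, was well below Tlr4, at 8.49 to 13.3.

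**Figure D1:**
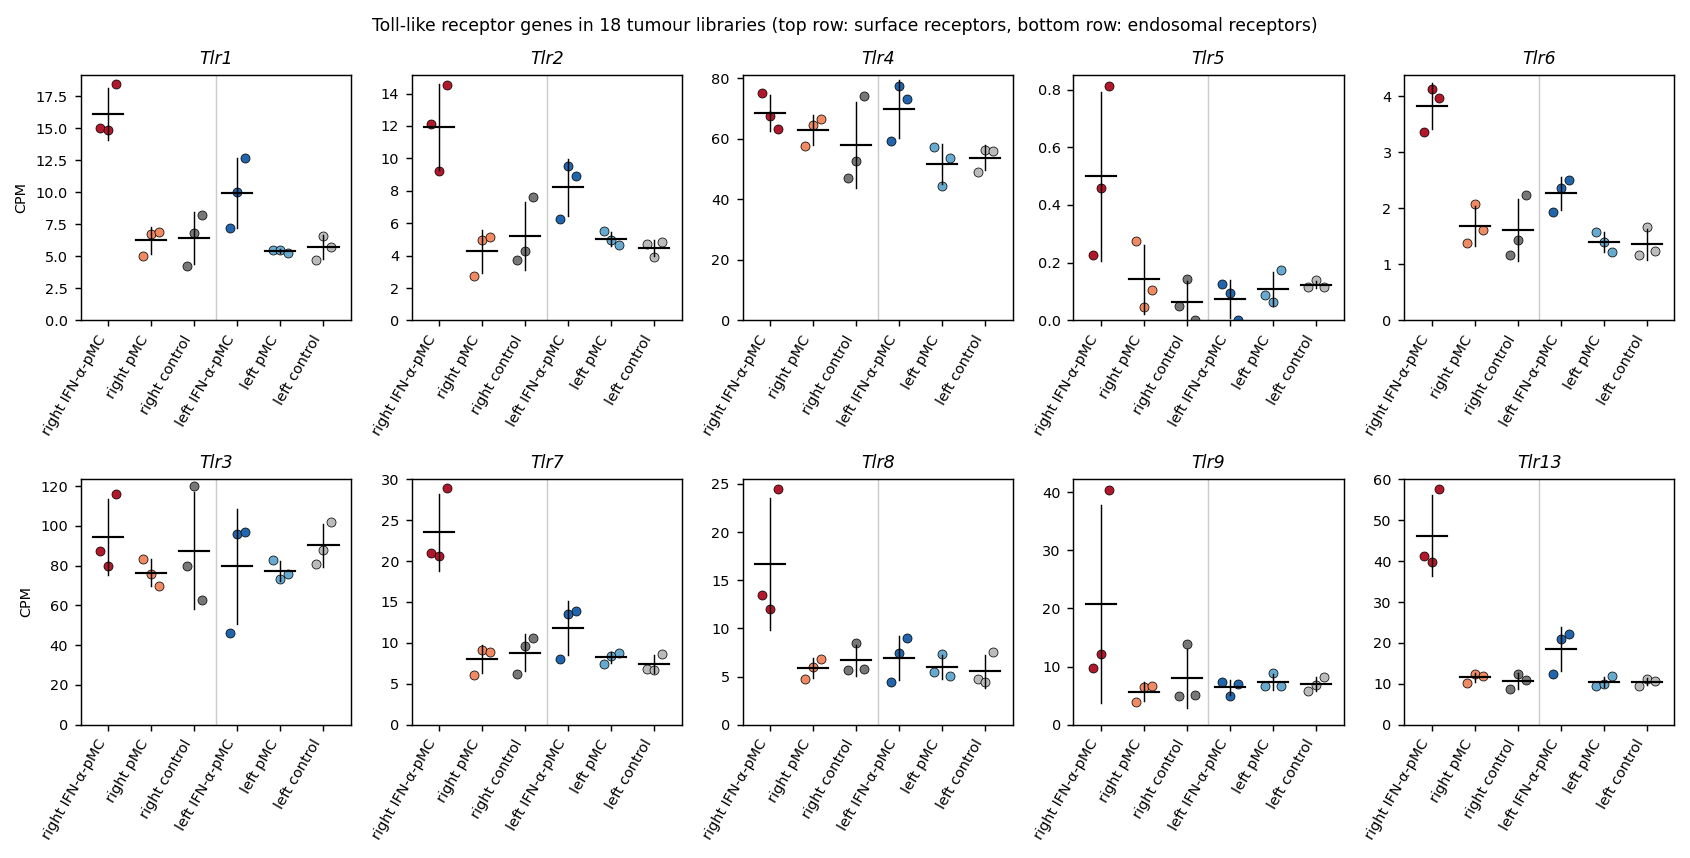
CPM of the 10 Toll-like receptor genes in each library, by group; points are libraries, horizontal bars the mean and vertical bars the SD over 3 libraries, and each panel has its own linear axis from 0. The 3 right IFN-alpha-pMC libraries of Tlr13 lie between 39.8 and 57.7 CPM, above the other 15 libraries, while those of Tlr3 and Tlr4 lie among the other groups.

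Upstream windows of 4 receptors are shown because the results below set them apart: Tlr13 had the largest difference beside injected IFN-alpha-pMC, Tlr6 and Tlr1 are paralogs with alike profiles, and Tlr3 was abundant and did not pass the test. RefSeq windows of 300 bases (250 before and 50 after a start site, build GRCm38.p6, 10 windows for 8 of the 10 members, none for Tlr4 or Tlr7) are printed 5′ to 3′ on the gene's strand, in lower case with motif matches in capitals. The second windows of Tlr6 and Tlr1 are not printed.
Tlr13, chrX:106143025-106143324, plus strand: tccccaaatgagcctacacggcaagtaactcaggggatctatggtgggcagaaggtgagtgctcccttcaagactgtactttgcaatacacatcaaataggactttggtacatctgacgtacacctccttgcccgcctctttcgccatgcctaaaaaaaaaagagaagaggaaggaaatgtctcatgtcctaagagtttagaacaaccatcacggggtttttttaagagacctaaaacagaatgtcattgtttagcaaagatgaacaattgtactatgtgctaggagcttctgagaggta
Tlr6, chr5:64959117-64959416, minus strand: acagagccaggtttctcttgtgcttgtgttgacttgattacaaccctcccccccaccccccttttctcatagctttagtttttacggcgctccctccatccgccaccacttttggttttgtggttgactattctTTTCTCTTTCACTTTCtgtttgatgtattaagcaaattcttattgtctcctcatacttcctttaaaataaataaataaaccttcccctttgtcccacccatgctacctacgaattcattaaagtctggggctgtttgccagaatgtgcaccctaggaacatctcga
Tlr1, chr5:64933509-64933808, minus strand: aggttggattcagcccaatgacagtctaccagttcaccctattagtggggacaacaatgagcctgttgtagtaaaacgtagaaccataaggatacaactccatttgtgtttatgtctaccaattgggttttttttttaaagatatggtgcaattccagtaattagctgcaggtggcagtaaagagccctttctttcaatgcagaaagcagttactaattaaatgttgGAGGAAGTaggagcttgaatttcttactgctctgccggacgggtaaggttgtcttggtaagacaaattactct
Tlr3, chr8:45410331-45410630, minus strand: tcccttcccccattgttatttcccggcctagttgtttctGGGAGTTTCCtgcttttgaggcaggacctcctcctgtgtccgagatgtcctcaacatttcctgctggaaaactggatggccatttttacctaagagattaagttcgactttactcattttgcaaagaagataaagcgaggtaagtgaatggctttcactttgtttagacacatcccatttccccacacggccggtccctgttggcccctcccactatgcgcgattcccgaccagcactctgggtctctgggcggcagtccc
The motifs searched on both strands were 4. The core of the interferon-stimulated response element, GAAA, any 2 bases and GAAA again, is in 3.44% of the 32851 windows of the table, the gamma-activated site TTCNNNGAA in 8.3%, the PU.1 site GAGGAAGT in 3.2% and the kappa-B site, GGGA, any 2 bases and TTCC, in 1.47%. The Tlr6 window holds the interferon-stimulated core in 2 overlapping copies on the opposite strand, which start 116 and 110 bases before the start site. The Tlr1 window holds a PU.1 site that starts 23 bases before the start site, and the Tlr3 window a kappa-B site that starts 211 bases before it. The Tlr13 window holds none of the 4, and neither do those of Tlr2 and Tlr5. Of the windows not printed, Tlr9 holds a PU.1 site on the opposite strand and Tlr8 and the second windows of Tlr1 and Tlr6 hold gamma-activated sites. These matches describe letters in the windows and show no binding.

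Beside injected IFN-alpha-pMC, most of the receptors were more abundant than in untreated tumours of the same side. Of the 9 members tested, 6 rose (Tlr13, Tlr7, Tlr8, Tlr1, Tlr6 and Tlr2) and none fell, where the share of all 14849 genes tested was 8.78% for higher and 2.01% for lower. Each of these 6 had all 3 IFN-alpha-pMC libraries above all 3 controls, which was so for 13.5% of genes tested. The members' median log2 fold change was 1.32, against -0.03 over all genes tested. In bulk tumour RNA, more cells that carry a receptor and more RNA per cell cannot be told apart. The test is edgeR's quasi-likelihood test with adjusted p-values over all genes tested, and fold changes are log2 values ± SE.

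Among the surface receptors Tlr1, Tlr2 and Tlr6 rose. Tlr1 had 15, 14.9 and 18.5 CPM in right IFN-alpha-pMC tumours, against 4.27, 6.86 and 8.22 CPM in right controls. The groups did not overlap, and the log2 fold change was 1.32 ± 0.24 (adjusted p = 0.00136). Tlr2, the shared partner of Tlr1 and Tlr6, had 12.1, 9.23 and 14.5 CPM in right IFN-alpha-pMC tumours, against 3.74, 4.27 and 7.59 CPM in right controls. The highest control, library 3, came close to the lowest IFN-alpha-pMC library without reaching it, and the difference was 1.19 ± 0.29 (adjusted p = 0.0135). Tlr6 was rare, with 3.36, 4.13 and 3.97 CPM in right IFN-alpha-pMC tumours and 1.16, 1.44 and 2.23 CPM in right controls, and rose by 1.25 ± 0.28 (adjusted p = 0.00694). The calls of Tlr2 and Tlr6 rest on control libraries: without right control 1 the values were 0.9 for Tlr2 and 0.96 for Tlr6 (adjusted p = 0.103 and 0.055), and without right control 2 that of Tlr2 was 0.97 (adjusted p = 0.0904).

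Tlr4, the lipopolysaccharide receptor, had 75.1, 67.6 and 63.3 CPM in right IFN-alpha-pMC tumours, against 47.2, 52.8 and 74.1 CPM in right controls. Right control 3 lay inside the IFN-alpha-pMC range, and the difference did not pass the test (0.25 ± 0.19, 95% interval -0.16 to 0.66, adjusted p = 0.497). Without that control library the difference was 0.57 and passed (adjusted p = 0.014), so the missing call rests on that library. Tlr5, the flagellin receptor, had 5, 8 and 19 counts in right IFN-alpha-pMC tumours, against 4 counts over the 3 right controls. Scaled to library totals, the summed counts gave a ratio of 7.5 (95% interval 2.66 to 29.2, counting error only), and 19 of the 32 counts came from IFN-alpha-pMC library 3.

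Among the endosomal receptors the rise of Tlr13 was the largest of the 9 members tested. Tlr13, a receptor of mouse that human genomes lack, had 41.3, 39.8 and 57.7 CPM in right IFN-alpha-pMC tumours, against 8.64, 12.4 and 11 CPM in right controls. The lowest IFN-alpha-pMC library was above every control by a wide gap, and the difference was 2.13 ± 0.19 (adjusted p = 4.99e-06). Tlr7 had 21, 20.6 and 28.9 CPM in right IFN-alpha-pMC tumours, against 6.21, 9.64 and 10.6 CPM in right controls (1.41 ± 0.24, adjusted p = 6.12e-04). The related receptor Tlr8 had 13.5, 12 and 24.5 CPM in right IFN-alpha-pMC tumours, against 5.73, 8.49 and 5.82 CPM in right controls (1.33 ± 0.28, adjusted p = 0.0037). Neither gene's groups overlapped, and library 3 was the highest IFN-alpha-pMC library for both. Tlr13 and Tlr7 also passed in a fit of the right IFN-alpha-pMC and control libraries alone, and 4 receptors did not: Tlr1 (1.28, adjusted p = 0.072), Tlr8 (1.28, 0.0851), Tlr6 (1.2, 0.138) and Tlr2 (1.15, 0.17).

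Tlr9 and Tlr3 did not pass the test. Tlr9, the receptor for CpG DNA, had 9.82, 12.1 and 40.4 CPM in right IFN-alpha-pMC tumours, against 4.95, 13.9 and 5.08 CPM in right controls. The groups overlapped through right control 2, and IFN-alpha-pMC library 3 alone lay far above all others. The difference was 1.39 ± 0.44 (adjusted p = 0.0541), and it was 1.95 without right control 2 (adjusted p = 0.0194), 1.71 and 1.64 without IFN-alpha-pMC library 1 or 2 (adjusted p = 0.0206 and 0.0424) and 0.46, short of the threshold, without IFN-alpha-pMC library 3. Tlr3, the receptor for double-stranded RNA and the most abundant member, had 87.2, 80.1 and 116 CPM in right IFN-alpha-pMC tumours, against 79.8, 120 and 62.9 CPM in right controls. The control range enclosed the IFN-alpha-pMC range, and the difference was 0.15 ± 0.21 (95% interval -0.3 to 0.59, adjusted p = 0.756).

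Set against pMC, the receptors showed what differed between tumours given cells with and without IFN-alpha. The 6 receptors above rose here too, and Tlr9 in addition. In right tumours 7 of 9 members were higher with IFN-alpha-pMC than with pMC, where 8.88% of all genes tested were higher. IFN-alpha-pMC tumours serve in both comparisons of the right side, so the sets of calls are not independent. Tlr13 averaged 46.3 ± 9.96 CPM in right IFN-alpha-pMC tumours and 11.5 ± 1.2 CPM in right pMC tumours (SD, n = 3 each), a difference of 1.96 ± 0.19 (adjusted p = 9.48e-06). Tlr7 and Tlr8 differed by 1.5 ± 0.24 and 1.45 ± 0.28 (adjusted p = 3.98e-04 and 0.00202). For Tlr2, Tlr1 and Tlr6 the differences were 1.43 ± 0.3, 1.33 ± 0.24 and 1.14 ± 0.28 (adjusted p = 0.00365, 0.00143 and 0.0128). The call of Tlr6 ended without right IFN-alpha-pMC 2 (1.04, adjusted p = 0.0543) or right pMC 1 (1.01, adjusted p = 0.0713). Tlr9 had 3.85, 6.51 and 6.68 CPM in the right pMC tumours, all below the 9.82 to 40.4 CPM of IFN-alpha-pMC (1.79 ± 0.45, adjusted p = 0.0152). Without right IFN-alpha-pMC 3 its difference was 0.94 (adjusted p = 0.125), and without right pMC 1 or 2 it was 1.57 or 1.91 (adjusted p = 0.0849 and 0.0552). Tlr4 and Tlr3 stood at 0.1 ± 0.19 and 0.27 ± 0.21 (adjusted p = 0.84 and 0.557). Tlr5 had 32 counts against 8 (ratio 3.73, 95% interval 1.68 to 9.38).

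Between pMC and control no member passed the test. In right tumours the 9 members' log2 differences between pMC and control ran from -0.4 (Tlr9) to 0.17 (Tlr13), in left tumours from -0.18 (Tlr3) to 0.21 (Tlr2), and 0 of 9 passed the test on either side. The background was 0% of genes tested on both sides, and 0 members had an unadjusted p under 0.05 in edgeR's test, where 359 genes on the right and 119 on the left did. DESeq2 called 0 members as well. With all 3 libraries that stand apart left out, Tlr4 stood at 0.47 on the right and passed (adjusted p = 0.00959), and 5066 of all genes passed there. These libraries were picked in these same data for standing apart, so such calls cannot show an effect of pMC. The 95% interval of Tlr13 was -0.23 to 0.58 on the right and -0.37 to 0.44 on the left, and the fitted values with IFN-alpha-pMC on the same sides lay outside these intervals. For Tlr9 the interval was wider, from -1.34 to 0.55 on the right.

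**Figure D2:**
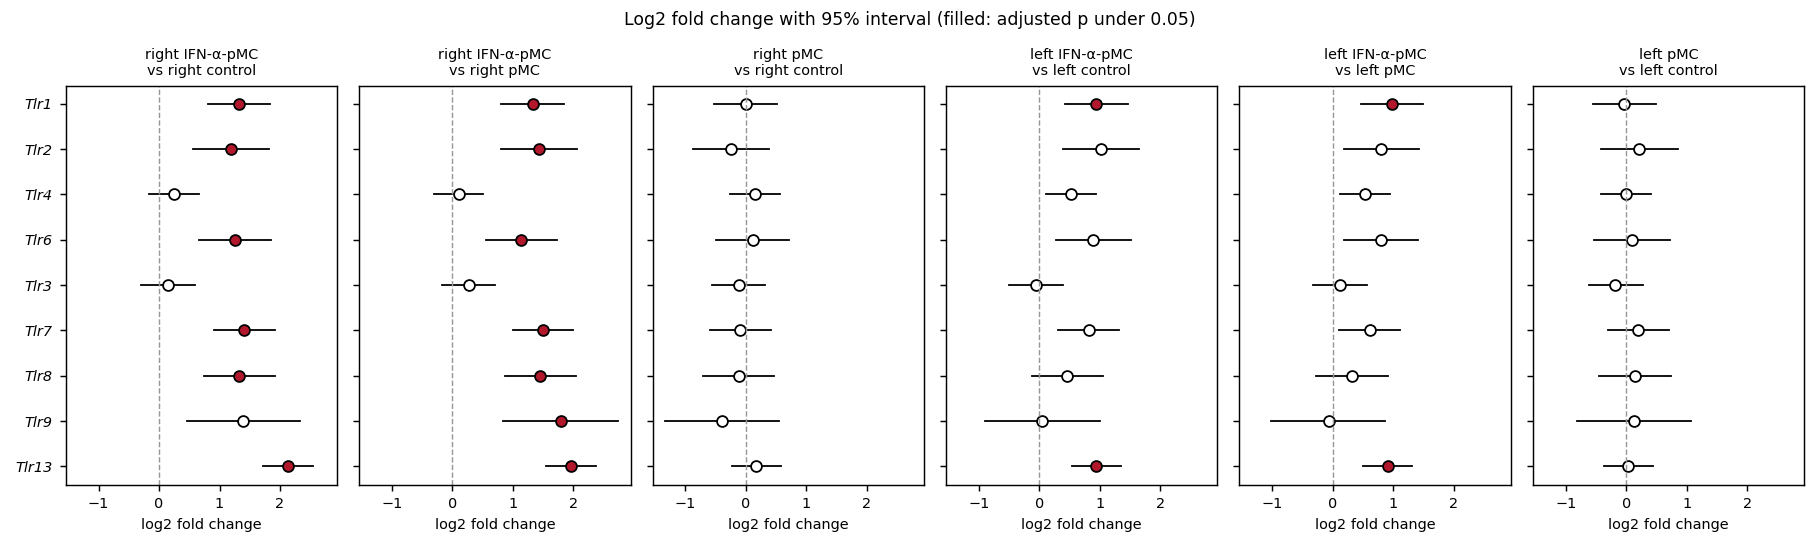
Log2 fold changes of the 9 tested members (points) with 95% intervals (lines) in 6 comparisons, the first-named group over the second; filled points have an adjusted p under 0.05. Tlr13 lies at 2.13 and 1.96 in the first 2 panels and at 0.94 and 0.91 in the left tumours of IFN-alpha-pMC mice, and the intervals of both pMC panels include 0.

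In the distant left tumours of IFN-alpha-pMC mice 2 of 9 receptors, Tlr13 and Tlr1, rose against left controls and none fell. Of all genes tested, 4.05% were higher, and the members' median was 0.82 against 0.07 over all genes. Tlr13 had 12.3, 21 and 22.1 CPM in left IFN-alpha-pMC tumours, against 9.57, 11.3 and 10.7 CPM in left controls. All 3 were above the controls, library 1 narrowly so, and the difference was 0.94 ± 0.19 (adjusted p = 0.0142). Tlr1 had 7.25, 10 and 12.7 CPM in left IFN-alpha-pMC tumours, against 4.75, 6.62 and 5.75 CPM in left controls (0.94 ± 0.25, adjusted p = 0.0393). In both genes library 1 was the lowest of its group and lay just above the highest control.

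Neither call of the left side was firm. Both calls ended without left IFN-alpha-pMC 2, and they also ended whichever of the 3 left controls was left out, with values of 0.84 to 0.95 for Tlr13 (adjusted p up to 0.092) and 0.79 to 1.02 for Tlr1 (adjusted p up to 0.144). That of Tlr1 also ended without left IFN-alpha-pMC 3, right pMC 2 or any 1 of the 3 left pMC libraries. Tlr2 and Tlr7 were just short of the threshold, at 1.02 ± 0.3 and 0.82 ± 0.24 (adjusted p = 0.0502 each), and both passed without right control 1, right control 3, right pMC 1 or right IFN-alpha-pMC 3. Leaving out right control 2 brought Tlr2 past the threshold too (adjusted p = 0.0455). Tlr6 stood at 0.89 ± 0.29, Tlr4 at 0.53 ± 0.19 and Tlr8 at 0.46 ± 0.28 (adjusted p = 0.0641, 0.0806 and 0.231), and the first 2 of these passed without right control 3 (adjusted p = 0.0186 and 0.0152). Tlr3 and Tlr9 stood at -0.06 ± 0.21 and 0.05 ± 0.45. Of the 9 tested members, Tlr1, Tlr2, Tlr4, Tlr6 and Tlr13 had left IFN-alpha-pMC libraries all above the left controls, which was so for 17.8% of all genes tested.

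Against left pMC the same 2 receptors passed, Tlr1 at 0.97 ± 0.24 and Tlr13 at 0.91 ± 0.19 (adjusted p = 0.0394 and 0.0216), where 2.73% of all genes tested were higher. Tlr13 averaged 18.4 ± 5.38 CPM in left IFN-alpha-pMC tumours and 10.4 ± 1.27 CPM in left pMC tumours (SD, n = 3 each). Both calls ended without left IFN-alpha-pMC 2 or 3 or any 1 of the 3 left pMC libraries, with values of 0.8 to 1.02 for Tlr13 and 0.82 to 1 for Tlr1. The call of Tlr1 also ended without left control 2 or 3, right IFN-alpha-pMC 2 or right pMC 2 or 3 (values 0.96 to 0.97, adjusted p = 0.0501 to 0.0601). Tlr4 and Tlr2 stood at 0.53 ± 0.19 and 0.8 ± 0.29 (adjusted p = 0.0943 and 0.0946). Without right control 3 these 2 passed, and so did Tlr6 at 0.8 and Tlr7 at 0.61 (adjusted p = 0.0178, 0.0227, 0.0314 and 0.0494 for Tlr4, Tlr2, Tlr6 and Tlr7).

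Within IFN-alpha-pMC mice, Tlr13 and Tlr8 were higher in right than in left tumours. Of 9 members these 2 passed, where 2.49% of all genes tested were higher on the right. Tlr13 had 41.3, 39.8 and 57.7 CPM on the right, against 12.3, 21 and 22.1 CPM on the left (1.24 ± 0.19, adjusted p = 0.00193). Tlr8 had 13.5, 12 and 24.5 CPM on the right, against 4.49, 7.45 and 8.97 CPM on the left (1.16 ± 0.28, adjusted p = 0.0312). The groups did not overlap for either gene, and 11.9% of genes tested had right libraries all above the left ones. The value of Tlr8 was 0.82 without right IFN-alpha-pMC 3 and 0.99 without left IFN-alpha-pMC 1 (adjusted p = 0.253 and 0.182), and its call also ended without left IFN-alpha-pMC 2, left control 1 or right pMC 2 (1.17 to 1.18, adjusted p = 0.0529 to 0.108). Tlr7 stood at 0.9 ± 0.23 and Tlr9 at 1.54 ± 0.45 (adjusted p = 0.0504 and 0.0926). Tlr7 passed without right control 1, right control 3 or right pMC 1 (0.9 each, adjusted p = 0.0242, 0.0196 and 0.0408), and Tlr9 without right IFN-alpha-pMC 1 (1.86, adjusted p = 0.0345). Tlr9 had 9.82, 12.1 and 40.4 CPM on the right and 7.38, 4.98 and 6.96 CPM on the left, so library 3 of the right carried most of its difference (0.68 without it). In pMC mice and in controls, right and left did not differ for any of the 9 members by this test, with 0% of all genes called and 0 members at an unadjusted p under 0.05. At that unadjusted level edgeR's test gave 310 genes in pMC mice and 116 in controls, and DESeq2 called 0 members in either.

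Whether the response to IFN-alpha-pMC itself differed between sides was tested as the right effect minus the left effect. Against control the difference was 1.19 ± 0.27 for Tlr13, 1.34 ± 0.63 for Tlr9 and 0.87 ± 0.39 for Tlr8 (unadjusted p = 3.98e-04, 0.0485 and 0.0406), and 0 of 9 members passed after adjustment (0.137 for Tlr13, 0.743 for the other two), where 0% of all genes passed and 918 had an unadjusted p under 0.05 (DESeq2 called 82). Against pMC it was 1.05 ± 0.27 for Tlr13 and 1.86 ± 0.63 for Tlr9 (adjusted p = 0.109 and 0.278), again with 0 of 9 past the threshold, where 0.391% of all genes passed. Against control the difference for Tlr13 passed with DESeq2 (1.18, adjusted p = 0.0142). Against pMC DESeq2 gave 1.04 (adjusted p = 0.0257). For pMC against control 0 members differed between sides.

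Markers of several cell types moved with the receptors. Of all genes tested, 8.78% were higher and 2.01% lower against right control, and 4.05% were higher against left control. The summed CPM of 14 monocyte and macrophage markers was 2130 to 2230 in right IFN-alpha-pMC tumours, 960 to 1580 in right pMC tumours and 893 to 1620 in right controls, and 9 of the 14 were higher against control. On the left it was 1440 to 1760 with IFN-alpha-pMC, 1040 to 1570 with pMC and 915 to 1130 in controls, where 6 of 14 were higher against control. T cell and NK cell markers rose on the right too, with T cell sums of 139 to 182 CPM in right IFN-alpha-pMC tumours against 13.4 to 32.5 CPM in right controls (8 of 8 markers passed) and NK cell sums of 115 to 146 CPM in right IFN-alpha-pMC tumours against 9.95 to 24.9 CPM in right controls (6 of 6 passed). On the left T cell sums were 40 to 47.5 CPM with IFN-alpha-pMC and 14.4 to 28.5 CPM in controls (4 of 8 passed), and NK cell sums were 34.1 to 52.3 CPM with IFN-alpha-pMC and 16 to 22.3 CPM in controls (4 of 6 passed). There 3 of 8 markers of type 1 conventional dendritic cells and 3 of 7 fibroblast markers were higher too. Against left pMC fewer were higher: 3 of 14 macrophage, 1 of 8 T cell and 1 of 6 NK cell markers. In that comparison 2 of 8 markers of type 1 conventional dendritic cells and 1 of 7 fibroblast markers were higher, and 2.73% of all genes tested. The plasmacytoid dendritic cell list summed to 511 to 596 CPM in right IFN-alpha-pMC tumours and 347 to 352 CPM in right controls, with 2 of 8 higher. Its defining marker Siglech averaged 1.78 ± 0.99 CPM in right IFN-alpha-pMC tumours and 0.953 ± 0.555 CPM in right controls. Nearly all of the sum thus came from other genes of the list, and it does not measure these cells. On the left the sum was 465 to 507 CPM with IFN-alpha-pMC and 329 to 362 CPM in controls. There 1 of 8 was higher, and the list's median log2 fold change was -0.1. B cell markers summed to 22 to 41.4 CPM in right IFN-alpha-pMC tumours and 6.74 to 14.3 CPM in right controls (2 of 4 tested higher), and neutrophil markers to 12.9 to 31.9 CPM in right IFN-alpha-pMC tumours and 6.65 to 7.1 CPM in right controls (1 of 4 tested higher). The defining neutrophil marker Ly6g had 2 counts in right IFN-alpha-pMC tumours and 0 in the other 5 groups. Endothelial markers ran the other way against right control (4 of 8 lower), but 0 of 8 were lower against right pMC, with a median of -0.05. Against right control 1 of 8 markers of type 1 conventional dendritic cells was higher, near the share over all genes. There 2 of 7 fibroblast markers were higher, and 0 of 7 melanocyte markers differed. Epithelial markers were at or near 0 in every library (0 to 0.466 CPM summed).

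Skeletal muscle RNA also moved with treatment. Its 12 markers summed to 1890 to 4130 CPM in right IFN-alpha-pMC tumours, 78.2 to 198 CPM in right pMC tumours and 27.9 to 1110 CPM in right controls, and on the left to 695 to 1170 CPM with IFN-alpha-pMC, 6.69 to 109 CPM with pMC and 7.74 to 354 CPM in controls. Against control, 1 of 12 passed on the right and 3 of 12 on the left, and against pMC 7 of 12 passed on the right and 3 of 12 on the left. Of all genes tested, 8.78% were higher against right control, 4.05% against left control, 8.88% against right pMC and 2.73% against left pMC. Against right pMC, 9 of 14 macrophage, 8 of 8 T cell, 6 of 6 NK cell, 4 of 7 fibroblast and 3 of 4 tested neutrophil markers were higher as well. In a fit that added the mean muscle marker level as a covariate, the log2 fold change of Tlr2 against right control was 1.18 (adjusted p = 0.0939), those of Tlr1 and Tlr13 against left control were 1.29 and 1.09 (adjusted p = 0.0775 and 0.0691) and those against left pMC 1.32 and 1.06 (adjusted p = 0.0875 and 0.0924). Against right pMC, Tlr2 and Tlr9 stood at 1.43 and 2.05 (adjusted p = 0.0504 and 0.0668). Without the covariate the values of Tlr1 and Tlr13 against left control were 0.94 each. The muscle marker level used (mean centred log2 CPM) ran from 1.63 to 4.03 in IFN-alpha-pMC libraries and from -4.92 to 2.3 in the others. It thus ran largely with treatment, and the fit cannot tell muscle content and treatment apart. The part of the other cell types in the receptor results was not tested.

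**Figure D3:**
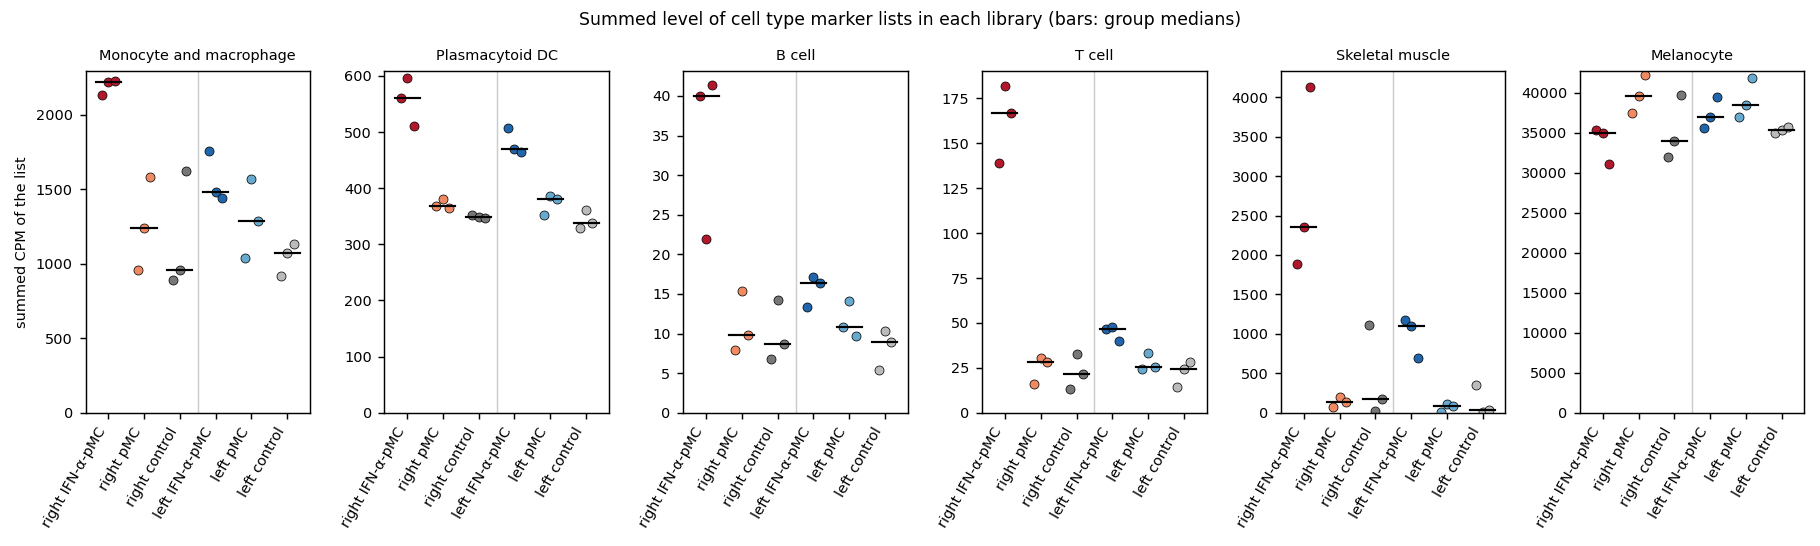
Summed CPM of 6 cell type marker lists in each library (points) with group medians (bars), on linear axes from 0. Macrophage marker sums in right IFN-alpha-pMC tumours (2130 to 2230) are above all other groups, and muscle sums are high in both IFN-alpha-pMC groups and in single controls.

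Divided by the summed macrophage markers, the receptors differed in how they stood between groups. Per 1000 CPM of the macrophage list, Tlr13 stood at 21.1 ± 4.24 CPM in right IFN-alpha-pMC tumours (18 to 25.9), 9.44 ± 1.6 in right pMC tumours and 9.78 ± 3.07 in right controls (6.76 to 12.9), so its libraries stayed above both other groups on this scale. Tlr1, Tlr2, Tlr6, Tlr7 and Tlr8 lay closer together but were also higher by mean. Tlr6 stood at 1.74 ± 0.144 in right IFN-alpha-pMC tumours (1.58 to 1.86) and 1.39 ± 0.101 in right controls (1.3 to 1.5), without overlap, but overlapped with right pMC. Tlr7 stood at 10.7 ± 2 in right IFN-alpha-pMC tumours (9.29 to 13), 7.87 ± 1.94 in right controls (6.55 to 10.1) and 6.46 ± 0.853 with right pMC (5.65 to 7.35). Like Tlr7, Tlr1, Tlr2 and Tlr8 overlapped with right controls and lay above all right pMC libraries. The ratio of Tlr4 was lower, at 31.4 ± 3.48 in right IFN-alpha-pMC tumours (28.4 to 35.2), against 51.5 ± 8.82 with pMC and 51.2 ± 4.94 in right controls (45.7 to 55.2), and the ranges did not overlap. Tlr3 stood at 43 ± 8.21 in right IFN-alpha-pMC tumours and 84.7 ± 43.8 in right controls, with overlapping ranges. In left tumours Tlr13 stood at 12.2 ± 4.53 with IFN-alpha-pMC and 10.2 ± 0.614 in controls, and these overlapped. Of the 14 genes of the list 9 were themselves higher in right IFN-alpha-pMC tumours than in right controls. The list's median log2 fold change there was 1.26, and those of Tlr1, Tlr2, Tlr6, Tlr7 and Tlr8 lay between 1.19 and 1.41. Abundant markers weigh most in the sum, so the ratios depend on the list and on this weighting. They are a description and were not tested.

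**Figure D4:**
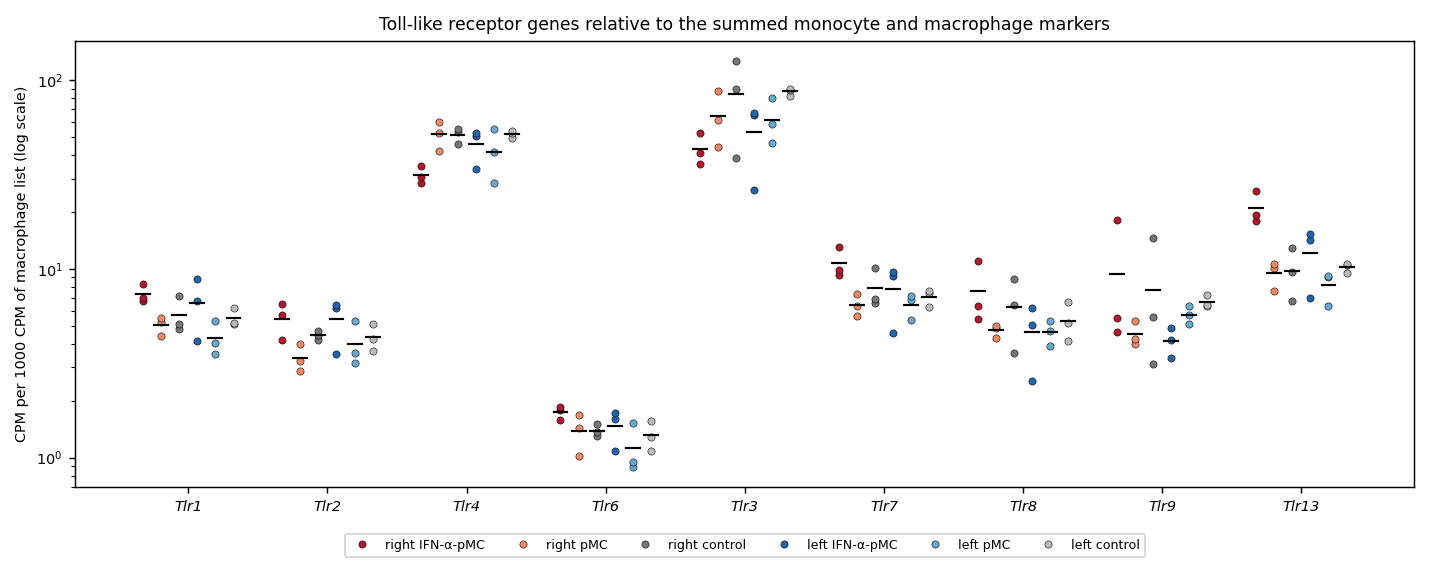
CPM of 9 members per 1000 CPM of the summed monocyte and macrophage markers, on a log axis; points are libraries and bars group means, in the 6 groups named in the legend. Tlr13 is above both other right groups in right IFN-alpha-pMC tumours (18 to 25.9), and Tlr4 is below them (28.4 to 35.2).

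The genes around the receptors were followed in 6 lists of pathway genes, whose counts on the right stand against the 8.78% of all genes tested that were higher. In right IFN-alpha-pMC tumours against right controls, 6 of 18 coreceptor and trafficking genes rose (Cd36, Cd180, Ly86, Unc93b1, Lgmn and Slc15a3) and none fell. Cd180 and Ly86, a receptor of the Tlr4 kind and its binding partner, rose by 1.9 ± 0.26 and 1.36 ± 0.27 (adjusted p = 1.23e-04 and 0.0025). Slc15a3, an endolysosomal transporter of histidine and peptides, rose by 1.88 ± 0.23 (adjusted p = 3.96e-05). Unc93b1 averaged 104 ± 27.7 CPM in right IFN-alpha-pMC tumours and 53.6 ± 8.14 CPM in right controls (0.98 ± 0.18, adjusted p = 0.0011). Cd14 and Ly96, which serve Tlr4, stood at 0.6 ± 0.37 and 0.48 ± 0.18 (adjusted p = 0.36 and 0.102), and Ly96 passed without right control 3 (0.65, adjusted p = 0.0185). Tlr11 and Tlr12, receptors for profilin of protozoan parasites, were counted in this list and did not pass, at 0.82 ± 0.42 and 0.29 ± 0.4 (adjusted p = 0.253 and 0.746).

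Among adaptors, 3 of 5 tested rose. Myd88 had a mean of 42.6 ± 1.06 CPM in right IFN-alpha-pMC tumours and 20.8 ± 0.565 CPM in right controls (1.06 ± 0.13, adjusted p = 4.45e-05). Ticam2, the bridge between Tlr4 and Ticam1, rose by 1.69 ± 0.34 and Pik3ap1, which links receptors to phosphoinositide 3-kinase, by 1.54 ± 0.29 (adjusted p = 0.00323 and 0.00164). Ticam1, the adaptor of Tlr3, stood at 0.02 ± 0.22 (adjusted p = 0.978). Of 18 kinases and ubiquitin ligases 0 passed, with a median of 0.06. Of 11 transcription factors 5 rose, 4 of them interferon regulatory factors: Irf7 averaged 245 ± 13.5 CPM in right IFN-alpha-pMC tumours and 55.2 ± 9.2 CPM in right controls (2.16 ± 0.18, adjusted p = 2.80e-06), Irf5 rose by 2.13 ± 0.18 (adjusted p = 3.05e-06) and Irf8 by 1.84 ± 0.21 (adjusted p = 2.58e-05).

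Negative regulators rose in 9 of 15 cases. Il1rl1, the IL-33 receptor, which is also a marker of mast cells and some T cells, had 144, 85 and 166 counts in right IFN-alpha-pMC tumours and 5, 7 and 7 in right controls (4.24 ± 0.45, adjusted p = 1.44e-05). Atf3, a stress-induced transcription factor, rose by 2.08 ± 0.26, and the feedback inhibitors Tnfaip3 and Socs1 rose by 1.81 ± 0.24 and 1.81 ± 0.26 (adjusted p = 5.64e-05, 7.79e-05 and 1.44e-04). Irak3, a kinase-like brake on Myd88 signalling, rose by 1 ± 0.21 (adjusted p = 0.00464), and without right control 1 it stood at 0.82 (adjusted p = 0.0524). Of 14 induced cytokines and enzymes tested 8 rose, led by Tnf (3.22 ± 0.35), the chemokine Ccl4 (3.21 ± 0.3) and the anti-inflammatory cytokine Il10 (3.13 ± 0.6), with adjusted p = 1.78e-05, 5.34e-06 and 0.00201. In a fit of the right IFN-alpha-pMC and control libraries alone Ly86, Ticam2, Pik3ap1, Unc93b1 and Irak3 did not pass (adjusted p = 0.11, 0.06, 0.129, 0.0825 and 0.213). In the fit with the muscle covariate, Il10 stood at 2.54 (adjusted p = 0.0911) and Ticam2 at 1.49 (adjusted p = 0.0649).

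In left IFN-alpha-pMC tumours against left controls, 4.05% of all genes tested were higher and 2.6% lower. The counts of list genes that rose were 1 of 18 coreceptor and trafficking genes, 1 of 5 adaptors, 0 of 18 kinases and ubiquitin ligases, 4 of 11 transcription factors, 4 of 15 negative regulators and 9 of 14 cytokines and enzymes. None fell. In edgeR's test of the right effect minus the left effect, 0 genes of the 6 lists passed against control. Against pMC 2 of 11 transcription factors passed, Irf7 and Irf5, and 0 genes of the other lists. Ly86 rose by 1.15 ± 0.27 and Myd88 by 0.5 ± 0.13 (adjusted p = 0.0265 and 0.0387), and Unc93b1, at 60 ± 17.5 CPM in left IFN-alpha-pMC tumours and 57.7 ± 1.7 CPM in left controls, stood at 0.19 ± 0.17 (adjusted p = 0.427). Irf8, Irf1 and Irf7 rose by 1.11 ± 0.21, 1.07 ± 0.18 and 1.03 ± 0.18 (adjusted p = 0.0103, 0.00538 and 0.0065). Il1rl1, Atf3 and Socs1 rose by 1.71 ± 0.5, 1.6 ± 0.26 and 0.9 ± 0.26 (adjusted p = 0.0494, 0.00538 and 0.0483). Il6 had 12, 8 and 16 counts in left IFN-alpha-pMC tumours and 1 count over 3 left controls. The ratio of summed counts was 31.9 (95% interval 5.37 to 1290, counting error only). With IFN-alpha-pMC the summed counts were alike on both sides, 36 on the left and 38 on the right. Right controls had 8 counts, a ratio of 4.46 on the right (95% interval 2.05 to 11.1, counting error only). In edgeR's test the log2 fold change of Il6 was 4.78 on the left (adjusted p = 0.0393) and 2.2, short of the threshold, on the right. Ptgs2, the inducible cyclooxygenase, rose by 3.04 ± 0.74 and Il12b, a subunit of IL-12 and IL-23, by 2.29 ± 0.54 (adjusted p = 0.0326 and 0.0291). Cd14, Ly96, Ticam1 and Irak3 stood at 0.94, 0.52, -0.43 and 0.36 (adjusted p = 0.11, 0.0698, 0.165 and 0.221). Of the genes named here for the left side, Atf3 and Irf1 kept their call whichever library was left out, and the others lost it without at least 1 library. Irf7 lost its call only without left control 1 (0.87, adjusted p = 0.0534), and Irf8 without left control 1 or 3 (1.02 and 1.05, adjusted p = 0.0656 and 0.068). Ly86, Il6, Ptgs2, Il1rl1, Myd88 and Socs1 lost theirs whichever of the 3 left controls was left out, and Il12b likewise. In the fit with the muscle covariate the left calls of Ly86 (1.35), Myd88 (0.52), Irf8 (1.21), Il1rl1 (2.53), Socs1 (0.96), Il6 (5.06), Ptgs2 (2.27) and Il12b (2.34) ended, with adjusted p between 0.0707 (Irf8) and 0.188 (Ptgs2).

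**Figure D5:**
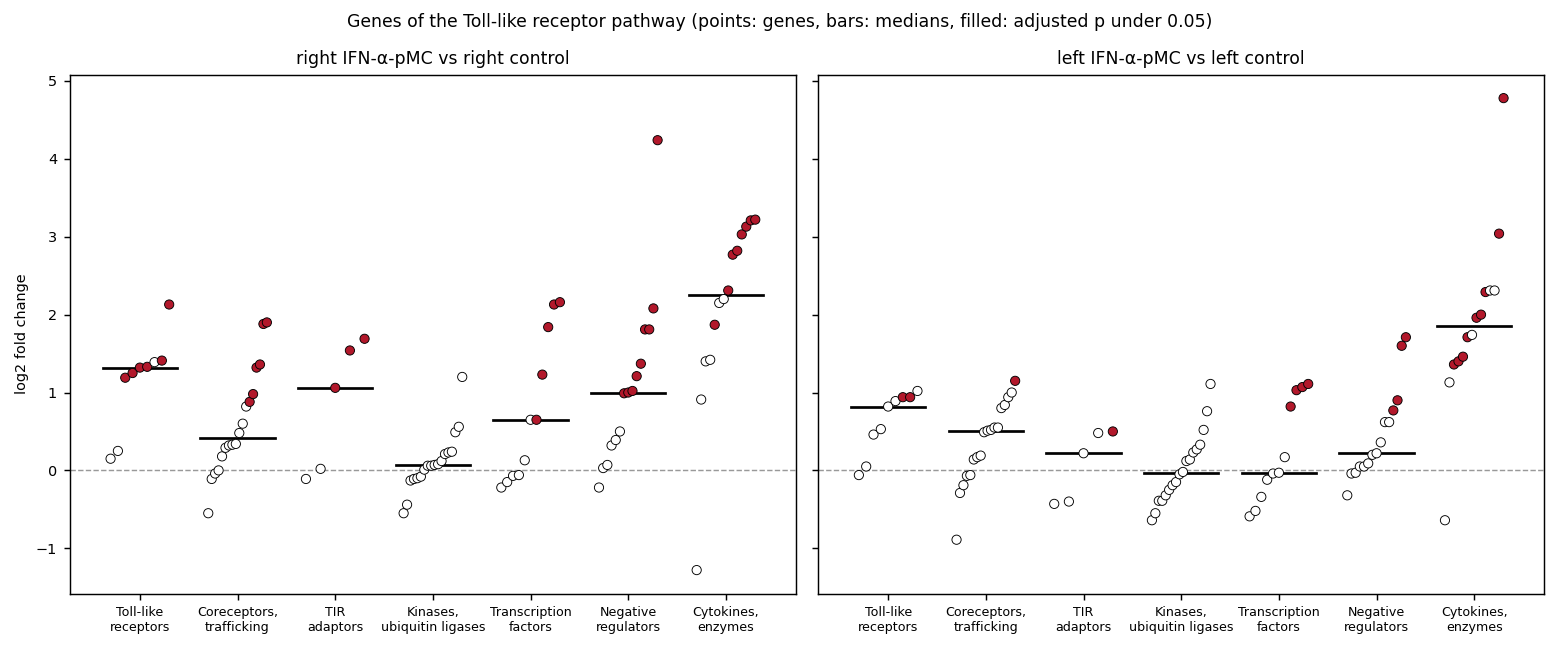
Log2 fold changes of the tested Toll-like receptors and of 6 pathway lists (points: genes, bars: medians; filled: adjusted p under 0.05) for right IFN-alpha-pMC over right control and left IFN-alpha-pMC over left control. The kinase and ubiquitin ligase list has medians of 0.06 on the right and -0.04 on the left and holds no filled point on either side, while receptors on the right have a median of 1.32.

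For each receptor that passed a test, the genes with the most similar profile were named as those with the smallest root mean square difference of centred log2 CPM over the 18 libraries. Tlr13 ran closest to Apobec3, a cytidine deaminase that restricts retroviruses (0.157), to Irf7 (0.158) and to the leukocyte signalling adaptor Lcp2 (0.159), where the median over all genes tested was 0.872. Tlr7 ran closest to Cyth4, Pld4 and Cybb, the last a subunit of the phagocyte NADPH oxidase (0.118 to 0.139). Tlr1 was closest to the protease Ctsc, Stk17b and the macrophage gene Mpeg1 (0.13 to 0.151). Tlr6 was closest to Stk17b, the peptidase Dpp4 and Tlr1 itself (0.153 to 0.17). Tlr2 was closest to Pid1, Sqor and the kinase Btk (0.221 to 0.236), and Tlr8 to the cytokine receptor chain Csf2rb, Ly6e and Frmd4b (0.18 to 0.218). Near Tlr9 were Sema4d (0.285) and Inpp5d, a signalling phosphatase of leukocytes (0.291). Libraries of 1 group share treatment and cell content, so such likeness is a description.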

How the data were processed

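Tumour RNA was sequenced in 18 TruSeq Stranded mRNA libraries, per the labels' protocols. The authors deposited raw counts per gene, with 1 file per library. The submitters' processing notes name HISAT2 2.1.0, HTSeq 0.10.0, Trimmomatic 0.36, DESeq2 1.20.0, CASAVA 1.8.2, FastQC, bcl2fastq and mm9. The strand setting of the counting is not given in the sources used here. The 5 summary lines of the counter, such as pairs aligned more than once, were left out, and counted genes held 60.19 to 70.71% of each library. Of 37620 gene IDs 32897 had a symbol.

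Counts were scaled by TMM and fitted with edgeR 4.0.16 (quasi-likelihood test, R 4.3.3, limma 3.58.1) over all 6 groups, after edgeR's filter on low counts, which left 14849 genes and 12 residual degrees of freedom. The Benjamini-Hochberg adjustment ran over those genes, with a threshold of 0.05, and 12 contrasts were made. CPM values are counts divided by the library total, without TMM. Lengths are exon unions of 3.01 to 5.56 kb from GENCODE M21, a build other than that of the files, so no coordinates were joined. Promoter windows are RefSeq's for GRCm38.p6. Floors and count ratios with 95% exact intervals cover counting error only. The scripts were tested on simulated counts. Named pathway genes are the 3 largest calls per list and comparison, plus Unc93b1, Cd14, Ly96, Myd88, Ticam1, Irak3 and Irf7, and other genes were named after their values were seen. Alternatives were DESeq2 1.42.0, RLE scaling, no filter, only the groups compared, a replicate block and a muscle marker covariate. Fits without 1 or 3 libraries were also run, and for comparisons of sides a block of treatment and number together. Members and lists were chosen with earlier results of these data known. Values of 2 single genes are not reported here.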

Additional observations from a re-analysis of the deposited data

Results flagged for a closer look

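The response to IFN-alpha-pMC against pMC differed between sides for 2 of 11 transcription factors of the pathway, where 0.391% of all genes tested did, by edgeR's test of the right effect minus the left effect. Irf7 differed by 1.28 ± 0.25 on the log2 scale (SE, adjusted p = 0.0377), with 2.08 on the right and 0.8 on the left. Irf5 differed by 1.54 ± 0.26 (adjusted p = 0.0228), with 2.29 on the right and 0.75 on the left. Right IFN-alpha-pMC libraries were above right pMC libraries in 3 of 3 cases for both. The share of all genes tested for which this was so is not given here, and it does not bear on the difference between sides. The call ended in 11 of 26 alternatives for Irf7 and in 8 of 26 for Irf5, each of them a fit without 1 library, where adjusted p reached 0.134 for Irf7 (left pMC 2) and 0.087 for Irf5 (right pMC 2). The main fit kept all libraries, including those that stood apart from their groups.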

How the results depend on the processing

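No call on a receptor or named pathway gene changed direction under the alternatives run, but calls came and went. Against right control, Tlr13 and Tlr7 passed under each of them (log2 1.9 to 2.26 and 1.12 to 1.67), and the count of 6 members became 2 in a fit of only the groups compared, 8 with DESeq2, which added Tlr5 and Tlr9, and 4 to 7 without 1 library. Against right pMC the 7 calls became 5 to 7 without 1 library. Between right pMC and right control the count was 1 (Tlr4) without right control 3 and the IFN-alpha-pMC libraries right 3 and left 1. For left IFN-alpha-pMC against left control the 2 calls became 5 with DESeq2, 5 with only the groups compared, 0 with the muscle covariate, 6 without the 3 libraries and 0 to 6 without 1. Against left pMC they became 4 with only the groups compared, 0 with the muscle covariate, 6 without the 3 libraries and 0 to 6 without 1. For right against left IFN-alpha-pMC tumours the 2 calls became 4 with DESeq2, 1 with only the groups compared, 1 without the 3 libraries and 1 to 3 without 1. For the difference of right and left effects the count of 0 became 1 (Tlr13) with DESeq2 and with the replicate block, against control and against pMC, and 1 against control without the 3 libraries. The cause of these changes was not tested. Right and left libraries of 1 treatment and number deviated together with correlations of -0.25 to 0.6. Same-numbered libraries of different treatments on 1 side gave -0.76 to 0.37. The labels do not say that a number marks a mouse, so the numbers were not taken as pairs. The tests of right against left took libraries as independent, and a pairing by mouse is not excluded. With the replicate block Tlr13 differed between sides by 1.22 against control and 1.07 against pMC (adjusted p = 0.0289 and 0.0288). The block also ended the left calls against control of Myd88, Il1rl1 and Socs1 (adjusted p = 0.0658, 0.0658 and 0.0708). It brought Tlr7 past the threshold in left IFN-alpha-pMC tumours against left controls (0.8, adjusted p = 0.0268) and in right against left IFN-alpha-pMC tumours (0.92, adjusted p = 0.00902), and Slc15a3 for the difference of effects against pMC (1.47, adjusted p = 0.00975). Over all genes, 1601 were called against right control and 987 in the left comparison, and 2076 and 2771 with DESeq2, where the share of higher calls was 70.9 and 50.7% in place of 81.4 and 60.9%. With only the groups compared these counts were 582 and 3062, with the muscle covariate 956 and 122, and without the 3 libraries 8175 and 4331, and without 1 library 1090 to 3946 and 86 to 4101, highest without right control 3. Against right pMC the 1497 genes called became 751 with the muscle covariate and 4286 without the 3 libraries. Against left pMC 578 became 1990 with DESeq2, 2538 with only the groups compared, 75 with the muscle covariate, 4142 without the 3 libraries and 33 to 2884 without 1. Between right pMC and right control 0 became 5066 without the 3 libraries, of which only right control 3 belongs to that comparison. The 3 were picked in these same data for standing apart, which favours a smaller spread and more calls. The 5066 therefore cannot show whether pMC had an effect. Depth limited Tlr5, Il6 and Ly6g to a few counts per library.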
